A study of Mus musculus with 12 samples.

Results

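The insulin and insulin-like growth factor (IGF) axis of mouse liver is described here through 10 genes chosen by symbol: Insr, Irs1, Irs2, Igf1, Igfals, Igfbp1, Igfbp2, Igfbp4, Ghr and Socs2. They are 10 of the 57010 genes in the deposited expression table, and each symbol matched 1 row. Liver RNA was sequenced from 12 male wild-type C57BL/6J mice kept on a normal diet. The selenium group, 6 mice, received Aspergillus oryzae A02, a food fungus grown with selenium, by gavage every day at 0.5 mg selenium per kg in saline. The control group, 6 mice, carries the treatment label "No treatment", and the labels do not say whether it was gavaged with saline. The mice were 6 weeks old and acclimatized for 7 days before assignment. The design text gives 8 weeks of feeding and the sample descriptions 14 weeks. Selenium and fungus were always given together and cannot be told apart, so the word selenium below names the group. Of 10 mice per group in the protocol, 6 per group were analysed, and each library is 1 mouse.

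Values are TPM, a measure of transcript abundance per unit of transcript length that adds up to a fixed sum per library, so levels can be compared between genes but the sequencing depth is unknown. A cell type label says hepatocyte, yet the tissue is liver, and markers of other liver cells were present in both groups. The 7 hepatocyte markers summed to 31060 to 48220 TPM in selenium livers and 29260 to 49710 TPM in control livers, and the 9 Kupffer cell and macrophage markers to 62.5 to 271 TPM and 69.0 to 151 TPM. In such bulk samples fewer cells of a type and less RNA per cell cannot be told apart. Muscle, fat and pancreas markers summed to 96.8 TPM in selenium 4 and to at most 7.31 TPM in each of the other libraries. The clock gene Dbp stood at 31.5 and 53.6 TPM in selenium 1 and 5, and controls 5 and 6 had 15.7 and 28.5 TPM. In the other 8 livers it ranged between 0.72 and 1.44 TPM, and the labels name no hour of sampling. Of all 9980 tested genes, 33 or 0.331% passed an adjusted p of 0.05 between the groups, with 2 (0.02%) higher and 31 (0.311%) lower in selenium livers.

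Growth hormone from the pituitary acts on hepatocytes through its receptor Ghr and the kinase JAK2, which activates the transcription factor STAT5. STAT5 drives Igf1, the growth factor that liver releases into blood, Igfals, the acid-labile subunit that keeps IGF in a long-lived circulating complex, and Socs2, a feedback inhibitor of the receptor. Insulin acts through its receptor Insr and the adaptor proteins Irs1 and Irs2 on the kinase AKT, which keeps the transcription factor FoxO1 out of the nucleus. In the fasted liver, when insulin is low, FoxO1 raises Irs2 and Igfbp1, a binding protein that holds IGF in blood away from its receptor. Igfbp2 and Igfbp4 are further IGF binding proteins made by liver.

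Promoter sequences, 250 bases before to 50 bases after the start of each gene, were taken from RefSeq on the GRCm38.p6 build, which differs from the GRCm39 build named for the expression files. They covered 8 of the 10 genes in 12 windows, with none for Insr and Socs2. The windows of Igfbp1, Irs2 and Irs1 are shown because they hold the insulin response motif TGTTTTG, which is bound by FoxO factors in the known control of Igfbp1. One window of Igfals is shown because it holds the STAT5 motif TTCNNNGAA. Capitals mark matches on either strand to these motifs, to the FoxO motif TGTTTAC and to the E-box CACGTG, which clock and other basic helix-loop-helix factors bind. The windows are chr11:7197537-7197836 on the plus strand for Igfbp1, chr8:11008880-11009179 on the minus strand for Irs2, chr1:82291390-82291689 on the minus strand for Irs1 and chr17:24877981-24878280 on the plus strand for Igfals. Each is written 5′ to 3′ in the direction of the gene.
Igfbp1: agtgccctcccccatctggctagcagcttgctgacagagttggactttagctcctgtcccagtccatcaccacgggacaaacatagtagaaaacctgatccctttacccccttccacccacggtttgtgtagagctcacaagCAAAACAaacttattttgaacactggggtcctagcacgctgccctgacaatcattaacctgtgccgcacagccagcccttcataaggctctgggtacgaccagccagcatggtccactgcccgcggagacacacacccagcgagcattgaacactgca
Irs2: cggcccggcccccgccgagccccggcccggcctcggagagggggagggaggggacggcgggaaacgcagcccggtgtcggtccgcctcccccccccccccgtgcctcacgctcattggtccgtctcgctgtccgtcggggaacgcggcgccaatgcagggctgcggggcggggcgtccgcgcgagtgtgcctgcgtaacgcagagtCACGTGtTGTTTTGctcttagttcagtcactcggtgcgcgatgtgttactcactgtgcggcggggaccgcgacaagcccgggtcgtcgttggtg
Irs1: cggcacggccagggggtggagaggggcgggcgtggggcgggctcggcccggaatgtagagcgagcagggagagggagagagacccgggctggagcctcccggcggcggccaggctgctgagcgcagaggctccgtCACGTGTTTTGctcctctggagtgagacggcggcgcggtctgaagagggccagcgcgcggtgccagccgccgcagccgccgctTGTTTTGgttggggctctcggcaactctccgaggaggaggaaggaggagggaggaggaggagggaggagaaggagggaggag
Igfals: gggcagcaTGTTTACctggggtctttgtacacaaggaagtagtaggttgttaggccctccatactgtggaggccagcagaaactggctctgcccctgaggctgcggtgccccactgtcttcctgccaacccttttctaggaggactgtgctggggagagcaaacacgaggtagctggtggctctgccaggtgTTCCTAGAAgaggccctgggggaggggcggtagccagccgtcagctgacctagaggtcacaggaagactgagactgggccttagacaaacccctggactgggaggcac

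The insulin response motif lay in 3 of the 12 windows, those printed for Igfbp1, Irs2 and Irs1, and in 6.28% of all 32851 promoter windows in the table. It started 108 bases before the gene start in Igfbp1, on the opposite strand, 37 bases before it in Irs2, and 111 and 32 bases before it in Irs1. In Irs2 an E-box began 44 bases before the start, just upstream of the insulin response motif, and in Irs1 an E-box overlapped the farther of its copies. An E-box and an insulin response motif starting within 20 bases of each other occurred in 19 of the 32851 windows, or 0.0578%, a pairing that was looked for after the sequences had been seen. The STAT5 motif occurred in 8.3% of all windows and, among these genes, in the window printed for Igfals and in another window of the same gene. The FoxO motif occurred in 3.65% of all windows and in the printed Igfals window, and the E-box in 7.15% of all windows and, besides Irs1 and Irs2, in a window of Igfbp2. A match describes letters in the window and shows no binding.

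The levels of the 10 genes covered a wide range, from Igfbp4 and Igf1 at the top to Irs1 at the bottom. Over all 12 livers Igfbp4 averaged 386 TPM and Igf1 353 TPM, and Igfbp4 was the higher in 7 of 12 livers, so their order was not beyond the spread. Igfbp2 at 189 TPM and Ghr at 171 TPM likewise could not be ordered, with Igfbp2 higher in 5 livers. Then came Igfbp1 at 25.4 TPM and Igfals at 19.7 TPM, again with overlapping ranges and Igfbp1 higher in 8 livers. Insr averaged 7.75 TPM, Socs2 4.26 TPM and Irs2 2.23 TPM, and Insr exceeded Socs2 in 11 livers and Socs2 exceeded Irs2 in 7. Irs1 was lowest at 0.368 TPM and lay below Irs2 in all 12. The steps from Igf1 to Igfbp2, from Ghr to Igfbp1, from Igfals to Insr and from Irs2 to Irs1 held in every liver (exact permutation of signs, two-sided, p = 0.000488 each, the smallest this test can give with 12 livers).

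**Figure D1:**
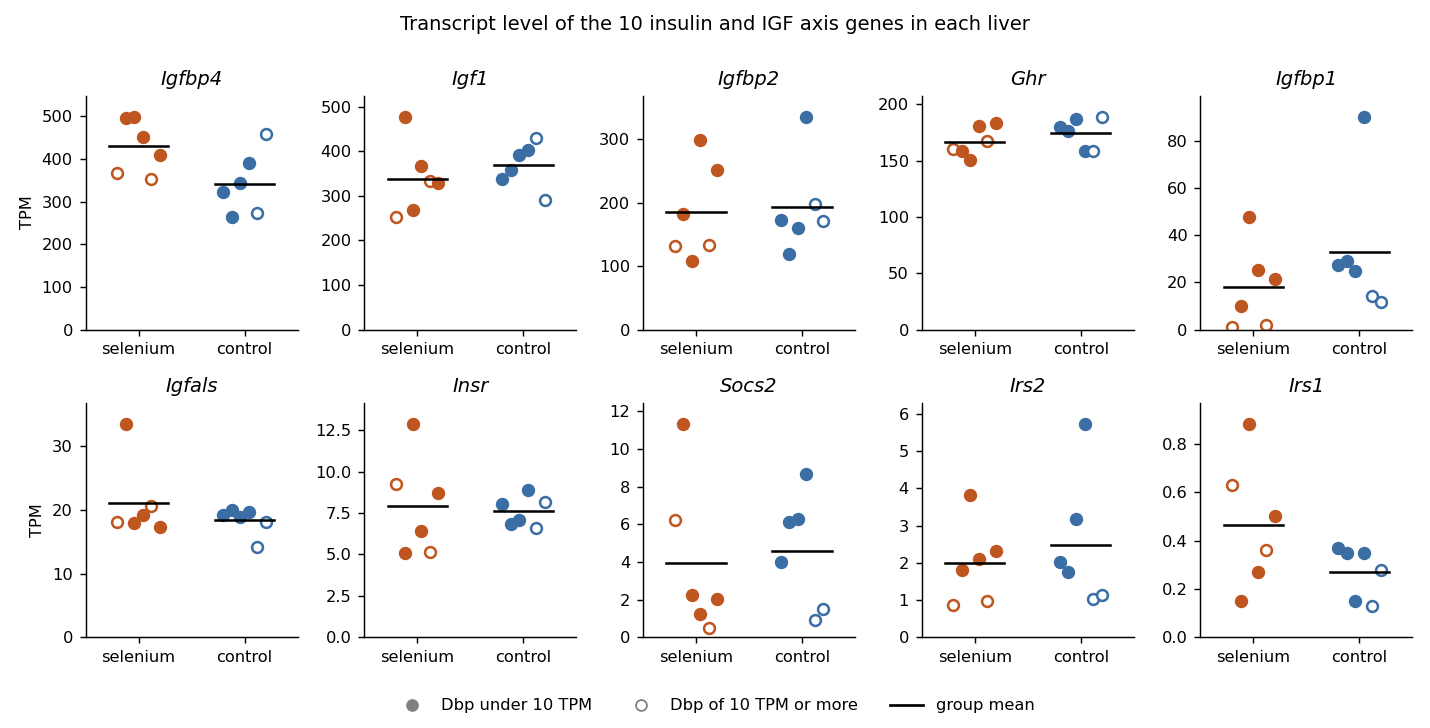
Each panel plots the TPM of 1 gene on a linear axis from 0, with 1 point per liver, 6 selenium livers on the left and 6 control livers on the right, open points for livers with Dbp of 10 TPM or more, and a bar at the group mean. The groups overlap in all 10 panels, and the 4 open points of Irs2 lie below its 8 filled points.

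The comparison of selenium with control livers asks whether the treatment went with a different setting of this axis in liver. No gene of the axis differed between the groups after adjustment. In limma on log2(TPM + 1) with Benjamini-Hochberg adjustment over all 9980 tested genes, 0 of the 9 tested members passed, against 0.331% of all tested genes (0.02% higher and 0.311% lower). At an unadjusted p under 0.05 there was 1 member, Igfbp4, against 18.5% of all tested genes. An exact permutation test per gene called 0 members, and 0 of the 10 had an adjusted p under 0.05 in the authors' deposited table, where 9.87% of the genes tested here did. The selenium and control ranges overlapped for all 10 genes, and they did not overlap for 1.63% of all tested genes. The median log2 change of the 9 members was -0.08 and that of all tested genes -0.03, with 2 members positive and 7 negative. Irs1 was below 1 TPM in every liver and was not part of that fit.

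Ghr, the growth hormone receptor, was the steadiest gene of the axis. It ran from 151 TPM over a median of 164 TPM to 184 TPM in selenium livers, and from 159 over 178 to 189 TPM in control livers. Its highest value exceeded its lowest 1.25-fold over the 12 livers, and 0.691% of all tested genes had a smaller spread within groups. The group means were 167 ± 13.0 TPM in selenium livers and 175 ± 13.4 TPM in control livers (SD, n = 6 each). The log2 change was -0.07, with a 95% interval of -0.28 to 0.15 (limma, adjusted p = 0.764), and was -0.04 without selenium 3.

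Socs2, which ends growth hormone signalling by marking its receptor for destruction, varied over 22.2-fold between livers. It ran from 0.51 over 2.14 to 11.3 TPM in selenium livers and from 0.89 over 5.09 to 8.65 TPM in control livers. Selenium 2 was the highest of all and selenium 5 the lowest, so the spread inside the selenium group spanned that of the controls. The log2 change of -0.33 had an interval of -1.41 to 0.75 (limma, adjusted p = 0.771). It was -0.07 without selenium 5 and -0.67 without selenium 2. It was 0.61 among the 4 livers with high Dbp and -0.80 among the other 8, and the difference between these values was not tested. The 0.61 came from selenium 1 and 5, at 6.25 and 0.51 TPM, against controls 5 and 6, at 0.89 and 1.48 TPM. Its sign thus rested on selenium 1 alone. A within-group spread larger than that of 98.6% of tested genes stands behind the width of the interval of its log2 change.

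Igf1 itself ran from 254 over 331 to 477 TPM in selenium livers and from 290 over 376 to 431 TPM in control livers. Selenium livers averaged 338 ± 80.6 TPM and control livers 369 ± 50.8 TPM (SD, n = 6 each), a log2 change of -0.15 with an interval of -0.48 to 0.19 (limma, adjusted p = 0.660). The change was -0.07 without selenium 1 and -0.25 without selenium 2. In 1 of 6 selenium livers, selenium 2, Igf1 was above the control median. Igfals, which holds IGF in its circulating complex, ran from 17.4 over 18.6 to 33.4 TPM in selenium livers and from 14.2 over 19.1 to 19.96 TPM in control livers. Its log2 change of 0.16, with an interval of -0.17 to 0.49 (limma, adjusted p = 0.610), was 0.03 without selenium 2. Selenium 2 thus held the highest value of the 12 livers for Igf1, Igfals and Socs2, which are all known STAT5 targets. It also had the lowest summed level of stellate cell and fibroblast markers, 19.8 TPM, and the part of cell composition in these values was not tested. Over the 12 livers Pearson's r was 0.40 for Igf1 and Igfals, 0.27 for Socs2 and Igf1 and 0.56 for Socs2 and Igfals. None of these passed (permutation, adjusted p = 0.669, 0.928 and 0.434), and without selenium 1 and 2 that of Igf1 and Igfals was -0.22.

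Of the 3 binding proteins among the 10 genes, Igfbp4 was the closest to the threshold. It ran from 353 over 430 to 499 TPM in selenium livers and from 264 over 333 to 459 TPM in control livers. All 6 selenium livers were above the control median, and control 6 alone kept the control range from ending at 390 TPM. The means were 429 ± 63.0 TPM in selenium livers and 342 ± 73.6 TPM in control livers (SD, n = 6 each). The log2 change of 0.34, SE 0.15, had an interval of 0.01 to 0.67, an unadjusted p of 0.0418 and an adjusted p of 0.250 in limma. The exact permutation p for the same difference was 0.0498 before adjustment. Leaving out 1 library gave 0.27 to 0.43, with an unadjusted p under 0.05 in 4 of the 12 limma fits. In the authors' deposited table, whose fold change is control over selenium, Igfbp4 had a log2 value of -0.14 and a p of 0.394, so the direction was the same and the size smaller. Among the 4 livers with high Dbp the log2 change was 0.03. Among the other 8 it was 0.50, with every selenium liver above every control liver (exact permutation p = 0.0286, two-sided, n = 4 each, the smallest this test can give), as was so for 10.8% of all tested genes in these 8. In limma on these 8 livers the adjusted p of Igfbp4 was 0.108.

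Igfbp2 ran from 109 over 158 to 299 TPM in selenium livers and from 120 over 172 to 336 TPM in control livers. The means of 185 ± 75.9 TPM in selenium livers and 193 ± 74.4 TPM in control livers lay well inside their SD (n = 6 each). Its log2 change was -0.08 (limma, adjusted p = 0.901) and became 0.09 without control 4, the liver with the highest value.

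Igfbp1, the binding protein that insulin is known to lower, had the widest range of the axis, 68.7-fold between the lowest and the highest liver. It ran from 1.31 over 15.8 to 47.6 TPM in selenium livers and from 11.7 over 26.1 to 90.05 TPM in control livers. Selenium 1 and 5 lay far below all the others at 1.31 and 1.80 TPM, and control 4 far above the other controls. The means of 17.9 ± 17.6 TPM in selenium livers and 32.9 ± 28.9 TPM in control livers (SD, n = 6 each) gave a log2 change of -1.26 with an interval of -2.77 to 0.26 (limma, unadjusted p = 0.0967, adjusted p = 0.370). Without selenium 1 the change was -0.80, and without selenium 3 it was -1.68. Its spread within groups was larger than that of 99.4% of tested genes.

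As shares of the summed TPM of Igfbp1 to Igfbp7, Igfbp4 made up 66.6 ± 6.95% in selenium livers and 57.8 ± 7.30% in control livers (exact permutation p = 0.0628, two-sided, n = 6 each). Igfbp2 followed with 27.9 ± 8.01% in selenium livers and 31.8 ± 6.06% in control livers. Igfbp1 held 2.55 ± 2.51% in selenium livers and 5.19 ± 3.17% in control livers. Igfbp7 held 2.31 ± 1.08% in selenium livers and 4.06 ± 0.594% in control livers (exact permutation p = 0.0130). Igfbp3 held 0.48 ± 0.198% in selenium livers and 0.827 ± 0.223% in control livers (exact permutation p = 0.0195). These p are not adjusted over the shares compared. The sum of the family was 651 ± 112 TPM in selenium livers and 598 ± 146 TPM in control livers (exact permutation p = 0.517, two-sided, n = 6 each), so these data show no difference in the total beyond the spread between mice.

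Insr, the insulin receptor, ran from 5.11 over 7.54 to 12.8 TPM in selenium livers and from 6.60 over 7.57 to 8.90 TPM in control livers. The selenium group held both the highest liver, selenium 3, and the lowest, selenium 2. The log2 change was -0.0093 with an interval of -0.41 to 0.39 (limma, adjusted p = 0.988), and its sign turned under other scalings.

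Irs1, the adaptor better known from muscle and fat, was low in these livers. It ran from 0.15 over 0.43 to 0.88 TPM in selenium livers and from 0.13 over 0.315 to 0.37 TPM in control livers. Of the selenium livers 4 were above the control median. The difference of 0.19 on log2(TPM + 1) had an exact permutation p of 0.141 (two-sided, n = 6 each), and without selenium 2 it was 0.26 with an exact permutation p of 0.0368, while without selenium 3 it was 0.11 with an exact permutation p of 0.294. In the authors' deposited table Irs1 had a log2 value of -0.81, control over selenium, with a p of 0.0269 and an adjusted p of 0.152. The depth behind these low values is unknown.

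Irs2, the main insulin receptor adaptor of the fasted liver, ran from 0.86 over 1.97 to 3.82 TPM in selenium livers and from 1.03 over 1.88 to 5.72 TPM in control livers. Control 4 was highest and selenium 3 next. The log2 change of -0.16 had an interval of -0.79 to 0.47 (limma, adjusted p = 0.814) and was 0.06 without control 4.

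**Figure D2:**
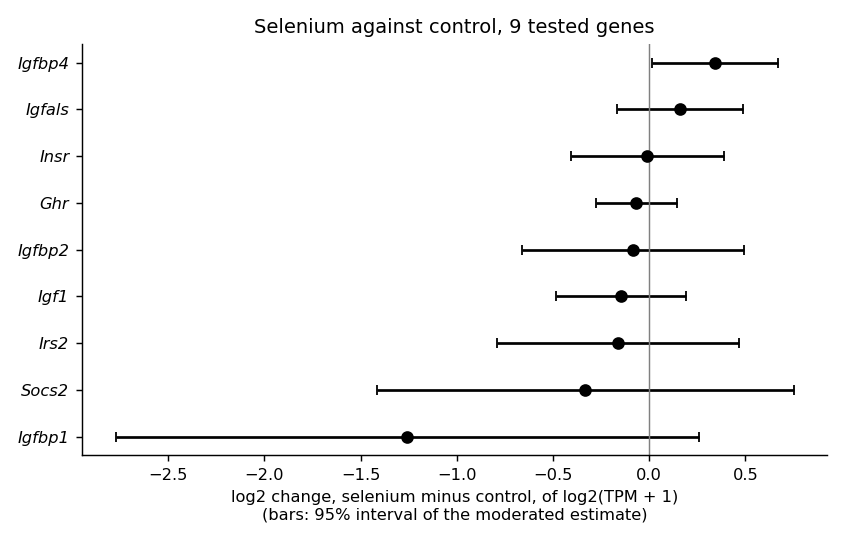
Points give the log2 change of the 9 tested genes, selenium minus control on log2(TPM + 1), and bars the 95% interval of limma's moderated estimate. The interval of Igfbp4, 0.01 to 0.67, lies just above 0, and those of the other 8 genes include 0, with Igfbp1 the widest.

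Irs2 and Igfbp1, both known FoxO1 targets, moved together from liver to liver. Over the 12 livers Pearson's r of log2(TPM + 1) was 0.85 (permutation p = 0.00063, adjusted p = 0.0227 over all 36 pairs of the 9 tested genes). Spearman's rho was 0.79 (permutation p = 0.0034, adjusted p = 0.122). Without selenium 3 and control 4, the 2 livers farthest from the median of Irs2, r was 0.76 (permutation p = 0.00683, adjusted p = 0.246). Within the 6 selenium livers r was 0.97 (exact permutation p = 0.00278) and within the 6 control livers 0.92 (exact permutation p = 0.0167). Adjusted over the 36 pairs these were 0.1 and 0.3. The smallest p possible with 6 livers is 0.00139, which adjusts to 0.05 for 1 pair alone. A lone pair therefore could not pass under 0.05 within either group. As deviations from the group means r was 0.88 (permutation p = 0.00017, adjusted p = 0.00612). No other pair passed the adjustment.

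Irs2 separated by the level of Dbp, and Igfbp1 did so only in part. In the 4 livers with Dbp of 10 TPM or more Irs2 was at 0.86 to 1.14 TPM, and in the other 8 at 1.75 to 5.72 TPM, with no overlap. Such a split was found for 1.19% of all tested genes, and for 0.982% the 4 livers lay below the other 8. Igfbp1 in those 4 livers was at 1.31 and 1.80 TPM in selenium 1 and 5 and at 14.2 and 11.7 TPM in controls 5 and 6. In the other 8 livers Igfbp1 was at 10.1 to 47.6 TPM in selenium and 24.9 to 90.05 TPM in control. The ranges of Igfbp1 overlapped, since controls 5 and 6 lay above selenium 2, which had low Dbp. The log2 change of Igfbp1 was thus -2.45 among the 4 livers with high Dbp and -0.66 among the other 8 (exact permutation p = 0.343, two-sided, n = 4 each, for the 8). Among those 8 livers alone, a subset added after the data were seen, r between Irs2 and Igfbp1 was 0.83 (exact permutation p = 0.00776, adjusted p = 0.236). The 2 sets of livers were formed from the measured level of Dbp and are not groups of the study, so their difference is a description without a test.

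**Figure D3:**
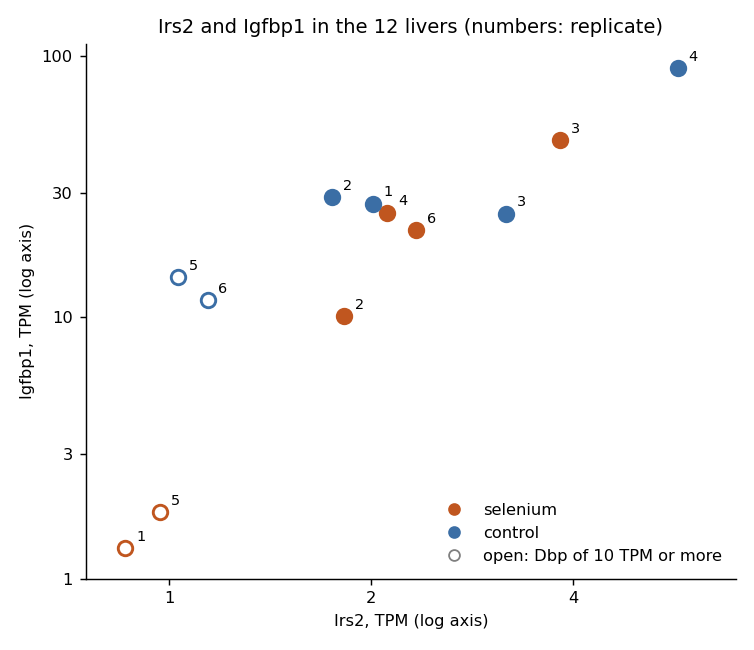
Each point is 1 liver, with Irs2 in TPM across and Igfbp1 in TPM upward on log axes, orange for selenium and blue for control, open for Dbp of 10 TPM or more, and the replicate number beside it. The open points fill the low end of Irs2, with selenium 1 and 5 lowest on both axes and control 4 highest on both.

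The state of genes controlled by fasting and by insulin differed between the same livers. The 12 tested FoxO factors and genes raised by fasting had a mean log2 deviation of 0.57 in selenium 3 and 0.51 in control 4, the livers highest in Irs2 and Igfbp1. It was -0.44 in selenium 1, -0.48 in selenium 5 and -0.55 in control 5, but 0.18 in control 6. The 9 tested genes raised by insulin had their lowest mean deviation, -0.64, in control 4, while selenium 1 and 5 stood at 0.27 and 0.42 and control 6 at 0.51. Selenium 3 and control 5 were near 0 for these genes, at -0.01 and -0.07, and selenium 4 and 6 lay lower, at -0.26 and -0.32. Pck1, which makes phosphoenolpyruvate for new glucose, was at 215 and 396 TPM in selenium 1 and 5 and at 719 to 965 TPM in the other selenium livers, with selenium 2 highest. In control livers it was at 1327 TPM in control 4, 975 TPM in control 6 and 448 to 670 TPM in the others. Pck1 was thus not low in control 6, where Irs2 was, and was higher in selenium 2 than in selenium 3. Other genes of the list differed from Pck1 there. In control 6 G6pc was at 55.6 TPM and Pdk4 at 1.33 TPM, the latter the lowest of the controls. Cpt1a, at 64.6 TPM, was the highest of the controls in control 6. In selenium 2 and 3 G6pc was at 62.7 and 91.3 TPM, Pdk4 at 1.00 and 11.95 TPM and Cpt1a at 50.4 and 102 TPM. The labels do not give the feeding state at sampling, and its part in these values was not tested.

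Among the remaining pairs, Insr and Igf1 had r of -0.67 (permutation p = 0.0178, adjusted p = 0.320) and Spearman's rho of -0.64 (permutation p = 0.0296, adjusted p = 0.533). Without selenium 2 and 3, the livers with the lowest and highest Insr, r was -0.38 (permutation p = 0.281). Among the 8 livers with low Dbp it was -0.85 (exact permutation p = 0.0131, adjusted p = 0.236). Socs2 and Igfals had r of 0.56 (permutation p = 0.0362, adjusted p = 0.434), with Spearman's rho of 0.35 (permutation p = 0.267, adjusted p = 0.974). Without selenium 2 and 5, the livers farthest from the median of Socs2, r was 0.63 (permutation p = 0.0241, adjusted p = 0.433).

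**Figure D4:**
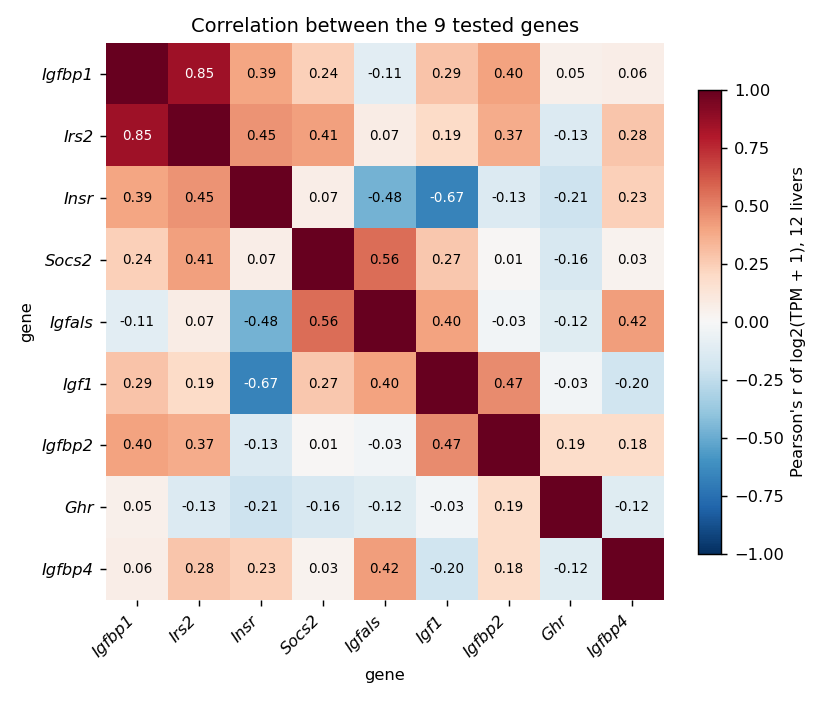
Colour and number give Pearson's r of log2(TPM + 1) over the 12 livers for each pair of the 9 tested genes. The strongest value is 0.85 for Irs2 and Igfbp1, the only pair past the adjustment, and the most negative is -0.67 for Insr and Igf1.

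Genes whose deviations from the group means were most like those of a member were looked for among the other 9979 tested genes over the 12 livers. These are the highest of many values, so they are given without a p. For Irs2 they were C9orf72 with r of 0.95 and Dcun1d3 with 0.93, and for Igfbp1 Arhgef18 with 0.95 and Nnmt with 0.94, the last an enzyme that methylates nicotinamide. Igfbp4 was most like Pex6 and Cyp2d26, both at 0.97, Insr like Sbno1 and Rc3h1, both at 0.98, and Igf1 like Ndufa3 at 0.97 and Tmem205 at 0.96. For Igfals they were A930005H10Rik at 0.94 and Serpina1c at 0.91, for Igfbp2 Mpc2 at 0.92 and Bud31 at 0.91, for Socs2 E2f8 at 0.89 and Slc25a30 at 0.87, and for Ghr Gm36041 at 0.86 and Tmsb15b1 at 0.83.

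Around the 10 genes, the rest of the pathway was read from 6 lists, none of which had a member past the adjusted threshold in limma. At an unadjusted p under 0.05, 7.01% of all tested genes were higher and 11.4% lower in selenium livers. Of 17 other IGF ligands, receptors, binding proteins and their proteases, 3 reached the level to be tested, and 2 of the 3 were lower at an unadjusted p under 0.05. Igf2, Igf1r and the protease Pappa averaged 0.0617, 0.06 and 0.00167 TPM in selenium livers and 0.12, 0.105 and 0.005 TPM in control livers. Igfbp7, a binding protein with low affinity for IGF, was at 14.4 ± 5.78 TPM in selenium livers and 23.6 ± 2.43 TPM in control livers (SD, n = 6 each). Its log2 change of -0.75 had an adjusted p of 0.0949 in limma, which became 0.0465 with TPM rescaled without mitochondrial-encoded genes and 0.0268 with array weights. Those settings called 190 and 255 of all tested genes, against 33 in the main fit. Over the 14 other settings the adjusted p of Igfbp7 ran from 0.0268 to 0.201. Igfbp3, which binds IGF together with the product of Igfals, was at 2.95 ± 0.770 TPM in selenium livers and 4.97 ± 1.86 TPM in control livers, a log2 change of -0.56 (limma, adjusted p = 0.167). Igf2r, a receptor that clears IGF2, had a log2 change of 0.22 (limma, adjusted p = 0.463). In liver Igfbp3 and Igfbp7 are known mainly from cells other than hepatocytes. The 7 sinusoidal endothelial markers summed to 14.7 to 33.6 TPM in selenium livers and 8.34 to 39.5 TPM in control livers, and the 9 stellate cell and fibroblast markers to 19.8 to 85.1 TPM and 49.2 to 71.2 TPM. Of the stellate cell markers 5 were tested and the log2 changes of all 5 were below 0 (median -0.31), 1 of them past an unadjusted p of 0.05. Of the endothelial markers 4 were tested, 3 positive and 1 negative, with a median of 0.13. None of these markers was at 0 in all livers, and their part in the values of Igfbp3 and Igfbp7 was not tested.

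Of 17 genes of growth hormone signalling 13 were tested, with a median log2 change of 0.03 and 2 higher at an unadjusted p under 0.05. Stat3, a transcription factor of cytokine signalling, was at 16.7 ± 6.32 TPM in selenium livers and 10.0 ± 1.79 TPM in control livers, a log2 change of 0.61 (limma, adjusted p = 0.188). Among the 8 livers with low Dbp its change was 0.87 and passed (limma, adjusted p = 0.0487), where 43 of all tested genes did. Over the 14 other settings the adjusted p of Stat3 ran from 0.0487 to 0.339. The log2 changes of all 9 Kupffer cell and macrophage markers were above 0 (median 0.43), 0 of them past an adjusted or unadjusted p of 0.05 in limma, and their part in the value of Stat3 was not tested. The phosphatase gene Ptpn11 had a log2 change of 0.34 and the inhibitor gene Socs6 one of -0.21, with adjusted p of 0.254 and 0.307 in limma. Stat5b, the main growth hormone effector in liver, averaged 4.43 TPM in selenium livers and 4.71 TPM in control livers, and Jak2 2.11 and 2.42 TPM.

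From adaptor to kinase, 28 of 35 genes of insulin signalling were tested, with a median log2 change of 0.05. At an unadjusted p under 0.05, 6 were higher and 2 lower. Mtor, the kinase of 2 growth complexes, was at 5.45 ± 1.26 TPM in selenium livers and 3.44 ± 0.392 TPM in control livers (SD, n = 6 each). Its log2 change was 0.52, with an adjusted p of 0.0831 in limma. The adjusted p was 0.0335, 0.0302 and 0.0269 with median-of-ratios scaling, quantile normalization and array weights. Those settings called 94, 12 and 255 of all tested genes, against 33 in the main fit. Over the 13 other settings the adjusted p of Mtor ran from 0.0269 to 0.168. Akt2, the AKT form that carries the insulin signal in liver, was at 21.3 ± 4.78 TPM in selenium livers and 13.6 ± 3.42 TPM in control livers. Its log2 change was 0.62, with an adjusted p of 0.115 in limma. The adjusted p was 0.0478 and 0.0402 with median-of-ratios scaling and array weights, and 0.0487 among the 8 livers with low Dbp. Those settings called 94, 255 and 43 of all tested genes. Over the 14 other settings the adjusted p of Akt2 ran from 0.0402 to 0.221. Rptor, the partner of mTOR in its first complex, had a log2 change of 0.33 (limma, adjusted p = 0.194). The 2 lower genes were Grb14 at -0.28 and Rictor at -0.32 (limma, adjusted p = 0.212 and 0.220).

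The 12 tested FoxO factors and genes raised by fasting had a median log2 change of -0.05, with 1 higher at an unadjusted p under 0.05. That was Cpt1a, which admits fatty acids to mitochondria, with a log2 change of 0.53 (limma, adjusted p = 0.180). It passed with array weights at 0.71 (limma, adjusted p = 0.0402), a setting that called 255 of all tested genes. Over the 14 other settings the adjusted p of Cpt1a ran from 0.0402 to 0.315. Foxo4 had a log2 change of 0.22 (limma, adjusted p = 0.295) and the fasting hormone gene Fgf21 one of 0.68 (limma, adjusted p = 0.325), while Foxo1 itself averaged 2.37 TPM in selenium livers and 2.33 TPM in control livers. Of the 10 genes raised by insulin 9 were tested, with a median of 0.07 and 0 past an unadjusted p of 0.05 in limma. Their smallest p belonged to Me1, Acaca and Acly, enzymes that supply or use carbon and reducing power for fatty acid synthesis, at log2 changes of 0.28, 0.22 and 0.16, with adjusted p of 0.405, 0.469 and 0.550 in limma. Of 19 clock genes 14 were tested, with a median of 0.06 and 1 higher and 1 lower at an unadjusted p under 0.05. Those of smallest p were Cry1 at a log2 change of -0.62, Nr1d1 at 1.57 and Rora at -0.21, with adjusted p of 0.184, 0.220 and 0.508 in limma. Among the 8 livers with low Dbp Nr1d1, a clock repressor, was at 8.60 to 18.1 TPM in selenium and at 1.04 to 2.92 TPM in control, so those 8 were not matched for clock genes (limma, adjusted p = 0.0129).

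**Figure D5:**
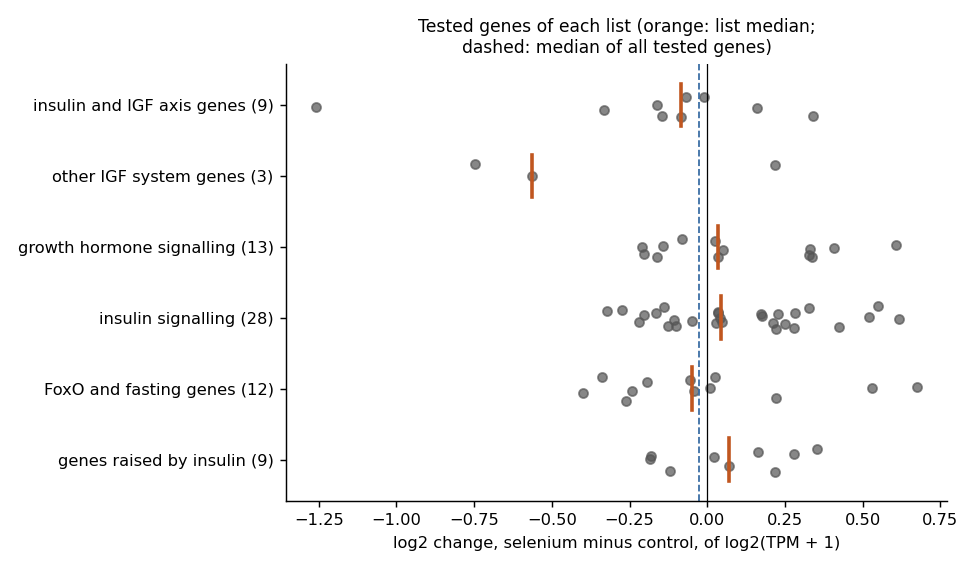
Each point is the log2 change of 1 tested gene, selenium minus control on log2(TPM + 1), by list with the number of tested genes in brackets, with an orange bar at the list median and a dashed line at the median of all tested genes, -0.03. Igfbp1 at -1.26 is the leftmost point, and the medians of the lists lie between -0.08 and 0.07 apart from the 3 other IGF system genes at -0.56.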

How the data were processed

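Liver RNA of 12 mice was sequenced, 6 per group, with each library a mouse numbered by its title. Per the submitters' processing notes, the build was GRCm39 and the tools included RSEM 1.2.8, HISAT2 2.1.0 and DESeq2. Strand use and RNA selection are not given in the sources used here. The authors deposited TPM per gene, equal in the series table and the single-library tables for 100% of values. The deposited series table also holds the authors' log2 fold change (control over selenium) and their raw and adjusted p-values.

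Genes with at least 1 TPM in 6 or more libraries, 9980 in all, were tested on log2(TPM + 1) in R 4.3.3 with limma 3.58.1, with an intensity trend and no covariate, two-sided, with Benjamini-Hochberg adjustment at 0.05. This scale understates changes of low genes. TPM are no counts, so no count test was run. Correlations used 100000 permutations in Python 3.11.15, or all pairings with 8 or fewer livers. Scripts were tested on simulated data. The members and lists were chosen with earlier results of these data known. Named genes were the members, the 3 genes of smallest p in each list, Dbp and Nr1d1, and the 2 genes most like each member. Pck1, G6pc, Pdk4, Grb14, Rictor, Igf2, Igf1r, Pappa, Stat5b, Jak2 and Foxo1 were named after their values were seen. The motif pairing, the correlations among 8 livers and the correlations without each library were added after the data were seen.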

Additional observations from a re-analysis of the deposited data

Results flagged for a closer look

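In groups of 6 livers, a liver was picked out where its gap to the nearest other liver, relative to the group's whole range, passed Dixon's 95% limit, which chance does in about 1 of 20 groups. Of 58 groups, from 29 genes, 11 livers were picked out. Among the members, Igfals was at 33.4 TPM in selenium 2 against 17.4 to 20.6 TPM in the other selenium livers, and at 14.2 TPM in control 5 against 18.2 to 19.96 TPM in the other controls. In control 4 Igfbp1 was at 90.05 TPM against 11.7 to 29.0 TPM in the other controls, and Igfbp2 at 336 TPM against 120 to 198 TPM. Control 4 also stood apart in the clock genes Cry1, at 12.8 TPM against 3.42 to 5.65 TPM, and Rora, at 5.36 TPM against 3.41 to 3.83 TPM.

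Elsewhere in the pathway, Igf2r was at 4.63 TPM in selenium 3 against 2.52 to 3.26 TPM in the other selenium livers, and at 3.93 TPM in control 6 against 1.94 to 2.53 TPM in the other controls. Acly was at 14.6 TPM in selenium 3 against 9.18 to 10.2 TPM, and at 12.4 TPM in control 6 against 7.75 to 9.35 TPM. Fgf21 was at 3.90 TPM in selenium 5 against 11.6 to 14.0 TPM in the other selenium livers.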

How the results depend on the processing

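The count of 0 members past the adjusted threshold held in 27 of 28 settings, the main fit included, and an unadjusted p under 0.05 gave 1, Igfbp4. Where few genes are called, as 33 of 9980 in the main fit, 0 of 9 tested members says little about the axis. The exact permutation test, 1 of the 27, could call no member, since its smallest adjusted p over all genes was 0.1325. The count of 33 over all tested genes was 1 without a filter, 94 with median-of-ratios scaling (53 higher and 41 lower, against 2 and 31), 12 with quantile normalization (2 and 10), 190 without mitochondrial-encoded genes, 56 with robust empirical Bayes, 255 with array weights (114 and 141), 13 with the first clock component as a covariate, 0 by the exact permutation test, 1842 at an unadjusted p and 8 to 170 with 1 library left out. It was 170 without control 6, 31 without selenium 6, 26 without control 1, and 8 to 21 without any other. Restricting the fit to the 8 livers of low Dbp gave 43, of which 30 were higher and 13 lower. The causes were not tested. Livers with the same number did not vary together (r from -0.14 to 0.11, 0 of 6 closest to their own number), and with the replicate block 3 genes and 0 members passed.

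Direction turned for some changes near 0. Insr was 0.0596 with median-of-ratios scaling, 0.0294 with quantile normalization, 0.049 with array weights, 0.0127 with the clock component and 0.0226 in the 8 livers with low Dbp. Ghr was 0.0143 with median-of-ratios scaling, Irs2 0.0168 with the clock component, and Igfbp2 0.28 with array weights and 0.11 in the 8 livers. Dbp was -0.61 with the clock component, which was built from the 14 tested clock genes, Dbp itself among them. With 1 library left out Insr ran from -0.15 to 0.0863, Irs2 from -0.31 to 0.0561, Igfbp2 from -0.24 to 0.091 and Dbp from -0.45 to 0.75. Igfbp4 kept its sign in all 14 other settings, from 0.24 to 0.50, with adjusted p from 0.0914 to 0.382. The 1 pair past the threshold, Irs2 and Igfbp1, was 0 pairs by Spearman's rho, without the 2 farthest livers, within either group and within the 8 livers, and the cause was not tested. Within either group of 6 livers a lone pair could not pass, since its smallest possible adjusted p was 0.05. The r of Irs2 and Igfbp1 was 0.80 to 0.88 with 1 library left out.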
